A study of Daphnia magna with 20 samples.

Results

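Lithium cobalt oxide (LCO) at 10 mg/L was set against the lithium and cobalt ions that this dose sheds into water, in whole water fleas of the species Daphnia magna. The comparison held 10 of the 20 libraries of the series, 5 with LCO and 5 with ions, chosen by their titles. LCO animals were exposed to the particle at 10 mg/L, and ion animals to 66 µg/L lithium and 15 µg/L cobalt, both added as chlorides. The 5 control libraries, from moderately hard water alone, and the 5 libraries with LCO at 1 mg/L are used as points of reference. All animals were wild type and 5 days old at the start, were fed alfalfa suspension, and were exposed for 48 h, and each library came from a pool of 10 animals. The ion level was set to what the particle had released by the end of that time. The files hold no measured water or tissue concentrations, so whether animals of both groups took up the same amounts of metal was not analysed here. One library of the higher LCO dose, replicate 1, carries a treatment tag that reads untreated. By its title it belongs to 10 mg/L, and its expression lay nearer to the other libraries of that dose (0.495) than to the ions (0.785) or the control (0.916), as the root mean square difference in log2 CPM (counts scaled to library size).

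LCO is a layered oxide that serves as cathode material in lithium-ion batteries. In water such particles shed part of their lithium and cobalt, so an animal kept with them meets both solid material and dissolved metal. Daphnids are filter feeders that take up suspended particles with their food. Cobalt is an essential trace element as the metal centre of vitamin B12 and is toxic in excess, and lithium is known from other animals as an inhibitor of glycogen synthase kinase 3. An ion control of this kind asks which part of a response is matched by the dissolved metal alone.

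The LCO libraries held 27241458 to 44181066 estimated counts and the ion libraries 20744445 to 29234877, so the ion group was sequenced less deeply. The tables list 26646 transcript targets, and 16163 passed the filter on low counts. The files pair no target with a gene name, and no target matched the gene table used here, so targets are given by identifier and without a function. Libraries within the LCO group lay closer together (0.424 to 0.627 between pairs) than libraries within the ion group (0.587 to 1.02). The distance between an LCO and an ion library was 0.655 to 1.17. Ion replicate 5 stood apart. It lay at 0.655 to 0.738 from the LCO libraries and at 0.749 to 1.02 from the other ion libraries, and the main counts that rest on it are therefore also given without it. Whether it is a mislabelled or mixed library was not tested, so the ion means and counts of calls given with it rest on its label.

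Transcript levels differed between LCO and the ions in 4057 of the 16163 tested targets (25.1%). With LCO, 1833 targets (11.3%) were higher and 2224 (13.8%) were lower than with ions. Most of these differences were modest. The median log2 fold change was 0.61 among the higher and -0.63 among the lower targets, and 65 higher and 83 lower targets differed by over 4-fold. The LCO and ion libraries did not overlap in 1835 targets (11.4%), 840 of them higher (5.2%) and 995 lower (6.16%). In whole animals, fewer cells of a type and less RNA per cell cannot be told apart. A target counted as called when the adjusted p of edgeR's quasi-likelihood test was under 0.05. The last called target had an adjusted p of 0.04998 and the next one 0.05004.

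**Figure D1:**
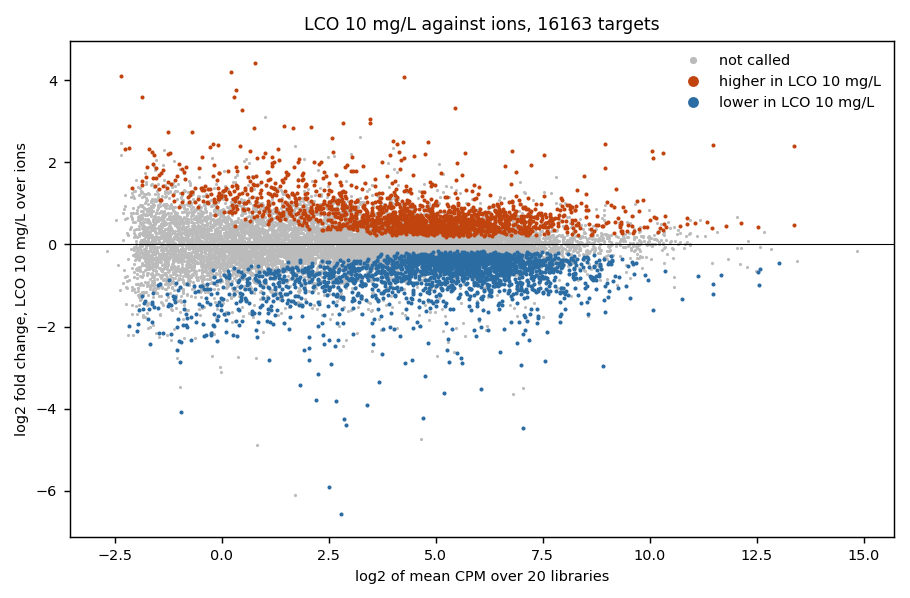
Each point is 1 of the 16163 tested targets. The horizontal axis is the log2 of its mean CPM over the 20 libraries and the vertical axis its log2 fold change, LCO at 10 mg/L over ions. The 1833 higher and 2224 lower called targets spread over the whole range of levels, with most within 2 log2 units of 0.

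Called targets were found at every level of abundance. Of targets with a mean under 1 CPM, 7.72% were called, against 17.3% at 1 to 10 CPM, 31.8% at 10 to 100 CPM, 41.3% at 100 to 1000 CPM and 29.7% of the 118 targets at 1000 CPM and over. The median standard error of the log2 fold change was 0.439 in the rarest of these classes and 0.255 in the next. It was 0.127, 0.132 and 0.128 in the classes from 10 CPM up, so smaller differences were detectable there. Between 100 and 1000 CPM the calls leaned to the ions, with 241 higher and 444 lower with LCO. At 1000 CPM and over they leaned to LCO, with 24 higher and 11 lower. The called higher targets together took 18.6% to 20.7% of the counts in LCO libraries and 9.39% to 13.2% in ion libraries. The called lower targets took 15.0% to 18.7% in LCO libraries and 20.9% to 31.1% in ion libraries. These shares describe targets that were chosen by the same contrast.

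A stricter test asked which differences exceeded 1.5-fold. It passed 81 targets, 0.501% of those tested, 70 higher (0.433%) and 11 lower (0.0681%) with LCO. Single libraries moved this number. There were 45 to 48 without ion replicate 3 or 4 or LCO replicate 2 or 6. The balance of directions moved too. It was 62 higher and 5 lower without LCO replicate 1, and 84 and 32 without control replicate 1. With only the 10 libraries compared it was 60 and 24, with 50 of these targets among the 81. Without ion replicate 5, control replicate 1 and LCO 1 mg/L replicate 5 together, a choice made after seeing the data, it was 355 and 351. Without ion replicate 5, 401 targets passed, 267 higher and 134 lower, and 80 of the 81 were among them. The plain test called 5563 targets without it, 2816 higher and 2747 lower, including 3896 of the 4057. The median log2 fold change of the targets called with all libraries was then 0.75 for the higher ones and -0.68 for the lower ones.

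A set of 6 abundant targets among the 1833 higher ones was picked out after the values had been seen. The target with the largest gain in its share of the counts was KZS10820, the third most abundant of all by mean CPM. It stood at 17600, 24700, 26000, 17300 and 24600 CPM in LCO replicates 1, 2, 4, 5 and 6, and at 5290, 2850, 2290, 4700 and 5720 CPM in ion replicates 1, 3, 4, 5 and 6. The lowest LCO library was thus far above the highest ion library. The mean was 22000 ± 4230 CPM in LCO libraries and 4170 ± 1510 CPM in ion libraries (SD, n = 5 each), against 8610 ± 2310 at 1 mg/L and 7350 ± 1910 in control. Its log2 fold change over ions was 2.40 (SE 0.27, adjusted p 7.1e-05).

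A further 5 targets followed KZS10820 across the 20 libraries with a Pearson's r of log2 CPM over 0.95. They were KZR99912 (0.995), KZS00010 (0.993), KZR99913 (0.993), KZS06793 (0.993) and KZR99914 (0.962). The libraries share group, depth and composition, so these values are a description. The likeness held within groups, where the deviations from group means of KZS10820 and KZR99913 correlated at 0.955 and those of KZS10820 and KZR99914 at 0.818. KZR99912, KZR99913 and KZR99914 have consecutive identifiers. Whether they are parts of a single gene is not stated in the files. All 6 targets were higher with LCO than with ions by log2 fold changes of 2.11 to 2.45, with adjusted p from 5.2e-05 to 0.00012, and all 6 were among the 81 past 1.5-fold. KZS10820 was picked for its gain with LCO, and r over all 20 libraries carries the gap between the groups. The shared direction and small p thus follow from the choice and do not test the set.

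Together the 6 targets took 2.90%, 4.32%, 4.45%, 2.94% and 4.14% of the tested counts in the LCO libraries and 0.905%, 0.479%, 0.402%, 0.787% and 0.963% in the ion libraries. In the reference groups they took 0.937% to 1.88% at 1 mg/L and 0.853% to 1.59% in control. The sum was therefore higher in each 10 mg/L library than in any other library of the series, while ion replicates 1 and 6 lay within the control range and the other 3 ion libraries below it. Against control, all 6 targets were called higher with LCO at 10 mg/L (log2 fold changes 1.55 to 1.85). KZS10820, KZR99912 and KZR99913 were called lower with ions, by -0.82, -0.63 and -0.73. KZS00010, KZS06793 and KZR99914 differed by -0.584, -0.599 and -0.498 and just missed the threshold (adjusted p 0.068, 0.063 and 0.056). At 1 mg/L no member was called (log2 fold changes 0.20 to 0.40, adjusted p 0.32 to 0.62). Per unit of length, the highest level among the 6 was that of KZS00010, at 48200 ± 10800 TPM (length-scaled transcript abundance) with LCO and 10500 ± 4560 TPM with ions.

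Targets with the smallest p showed how differently a gap between the groups can arise. KZS18100 stood at 24.9, 25.1, 29.4, 34.3 and 28.8 CPM in the LCO libraries and at 12, 11.2, 10.5, 12.3 and 12.8 CPM in the ion libraries. The ion libraries lay apart here, since control libraries ran from 23.4 to 33.9 CPM. The log2 fold change over ions was 1.28 (SE 0.11, adjusted p 1.3e-05). Its counts were fractional in 16 libraries, which leaves its level uncertain where reads were shared with a similar target, and the fold change ran from 0.85 to 1.34 over the alternatives. KZR99914, a member of the set above, stood at 1800, 2630, 2720, 1630 and 2470 CPM with LCO and at 639, 416, 493, 448 and 608 CPM with ions. Here the LCO libraries lay apart, above control libraries at 524 to 1100 CPM.

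KZS16074 stood at 80.6, 61.0, 66.6, 55.6 and 57.6 CPM with LCO and at 396, 372, 399, 158 and 383 CPM with ions. Ion replicate 5 was far under the other ion libraries and still above every LCO library. KZS14686 stood at 3.40, 2.48, 3.44, 3.40 and 3.15 CPM with LCO and at 16.1, 9.44, 15.0, 10.4 and 23.8 CPM with ions. Controls at 9.47 to 21.2 CPM covered most of the ion range, and the LCO libraries lay below both. On the log2 scale KZS16074 differed by -2.41 (SE 0.24, adjusted p 5.2e-05). KZS14686 differed by -2.23 (SE 0.28, adjusted p 0.00019).

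**Figure D2:**
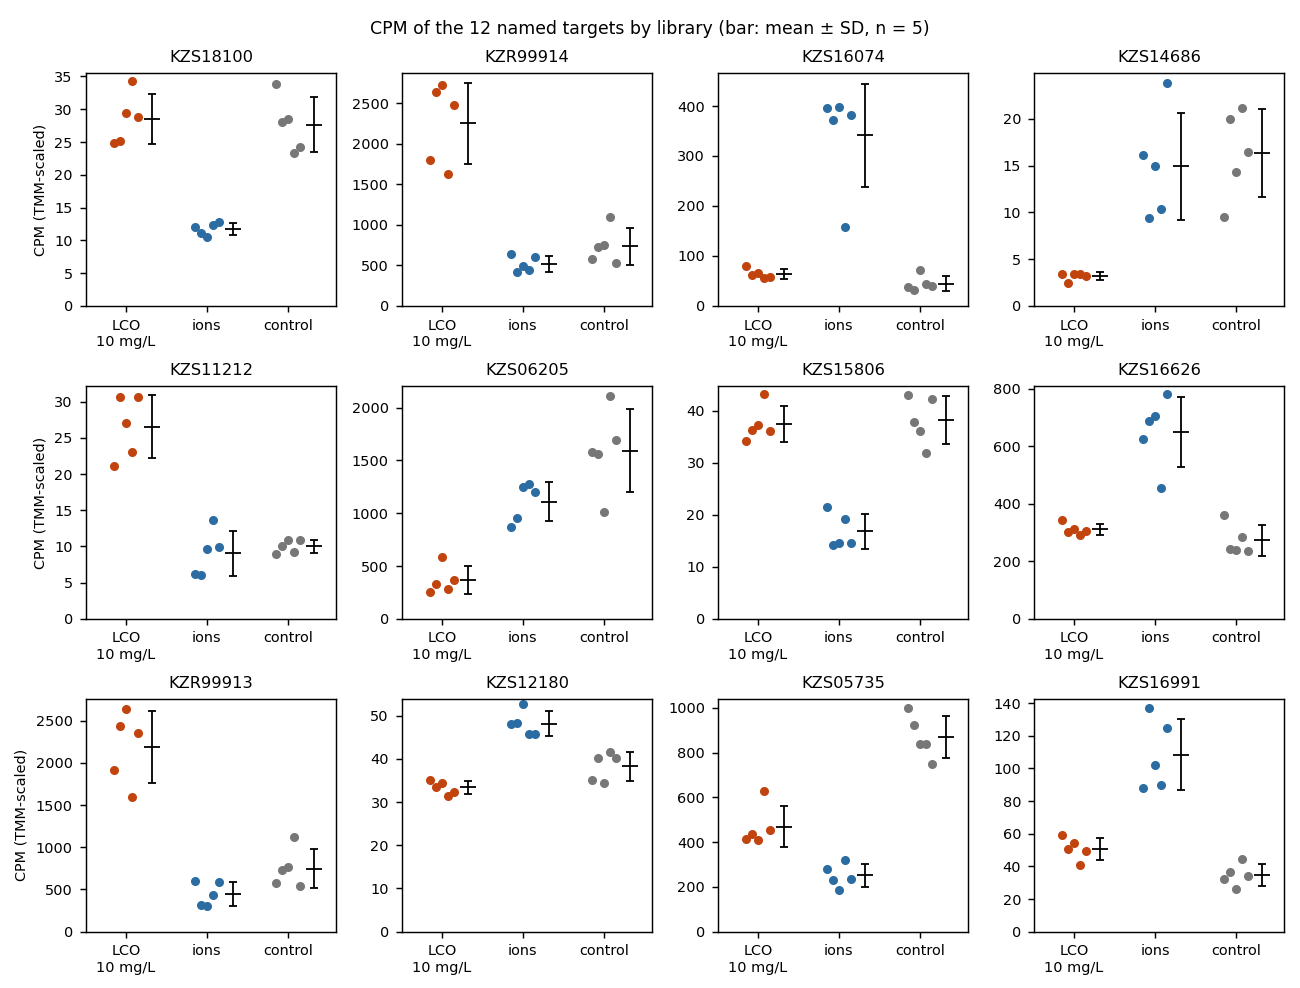
CPM of the 12 targets named by rule, 1 panel each, in the LCO 10 mg/L, ion and control libraries. Points are libraries, and the bar beside them is the mean ± SD (n = 5). The LCO and ion points do not overlap in any of the 12 panels, while control lies with the LCO points, with the ion points, between them or beyond them.

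The called targets were sorted by whether LCO, the ions or both were also called against control. These comparisons share the control libraries, and the classes follow from calls, so their sizes and medians are descriptions. How many of all tested targets carry the same pairs of calls against control was not counted. Among all tested targets, 30.4% were called between LCO at 10 mg/L and control, 50.1% between ions and control. The commonest class among the 4057 was that of targets called for the ions and not for LCO, with 746 targets higher and 1306 lower with LCO than with ions. All 746 were called below control in ions, and all 1306 were called above it, a side that the calls defining the class all but fix. Without ion replicate 5 the counts were 1154 and 1633. They were 324 and 470 without ion replicate 4, 345 and 540 without LCO replicate 5, and 431 and 801 without ion replicate 3, and the second was 830 without ion replicate 1. The median log2 fold change over control was -0.16 with LCO and -0.73 with ions in the 746, and 0.09 with LCO and 0.73 with ions in the 1306.

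KZS15806 was the example of a target lowered in ions. It stood at 34.1, 36.3, 37.2, 43.2 and 36.0 CPM with LCO and at 21.5, 14.2, 14.6, 19.1 and 14.6 CPM with ions, against 31.8 to 42.9 CPM in control. At 1 mg/L it was higher than in any of these groups, with libraries at 43.9 to 63.8 CPM. KZS16626 was the example of a target raised in ions, at 344, 301, 313, 291 and 304 CPM with LCO and 624, 687, 704, 456 and 781 CPM with ions. Its control libraries ran from 235 to 360 CPM and held the LCO libraries within their range. KZS15806 differed from ions by 1.15 on the log2 scale (SE 0.13, adjusted p 7.1e-05), KZS16626 by -1.07 (SE 0.15, adjusted p 0.00047).

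In 571 targets it was LCO that was called against control and not the ions, 317 of them higher and 254 lower. Without ion replicate 5 these counts were 323 and 280. The lower count was 119 without LCO replicate 5, and 160 to 169 without ion replicate 4 or LCO replicate 2 or 6. The median log2 fold change over ions was 1.02 in the higher and -0.81 in the lower targets. It was 0.56 and -0.61 in targets called for the ions and not for LCO. In targets with LCO and ions on opposite sides of control, described below, it was 1.21 and -1.19. Of the 70 higher targets past 1.5-fold, 42 were among the 317, which made up 17.3% of all higher calls. KZS11212 stood at 21.1, 30.7, 27.1, 23.1 and 30.7 CPM with LCO and at 6.20, 6.05, 9.65, 13.6 and 9.91 CPM with ions. Controls at 8.99 to 10.9 CPM lay among the ion libraries. The libraries at 1 mg/L, at 16.0 to 22.7 CPM, lay above them and reached the lowest LCO libraries at 10 mg/L. The log2 fold change over ions was 1.54 (SE 0.19, adjusted p 0.00012). KZS06205 stood at 252, 327, 588, 286 and 367 CPM with LCO and at 872, 952, 1250, 1280 and 1200 CPM with ions, against 1010 to 2110 CPM in control. Its log2 fold change over ions was -1.61 (SE 0.23, adjusted p 0.00054).

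Both exposures were called on the same side of control in 911 of the 4057 targets, so that LCO and ions differed in extent. This count was 1575 without ion replicate 5, 408 and 410 without ion replicate 4 and LCO replicate 5, and 524 to 603 without ion replicate 3 or LCO replicate 2 or 6. In 501 of these both lay below control with LCO nearer to it, and in 263 both lay above control with LCO nearer to it. The reverse, with LCO farther from control than the ions, was found for 68 targets above and 79 below control. By group means alone, LCO lay between control and ions in 55.1% of the 4057 called targets and 52.7% of all tested. The ions lay between control and LCO in 11.5% of the called targets and 25.7% of all tested. Control lay between LCO and ions in 33.5% of the called targets and 21.7% of all tested. These positions were not tested. KZS05735 stood at 414, 435, 408, 629 and 456 CPM with LCO and at 279, 233, 186, 320 and 237 CPM with ions, both under control at 747 to 999 CPM (log2 fold change over ions 0.90, SE 0.14, adjusted p 0.001). KZS16991 stood at 59.1, 50.4, 54.2, 40.7 and 49.4 CPM with LCO and at 88.0, 137, 102, 89.7 and 125 CPM with ions, against 26.0 to 44.6 CPM in control. Its lowest LCO library was within the control range, and its log2 fold change over ions was -1.10 (SE 0.15, adjusted p 0.00034).

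In 32 targets LCO and ions were called on opposite sides of control, 25 with LCO above and ions below and 7 the other way round. KZR99913 was the example of the 25, at 1910, 2440, 2640, 1600 and 2350 CPM with LCO and 597, 316, 308, 435 and 594 CPM with ions. The control libraries, at 546 to 1120 CPM, overlapped the upper end of the ion range. KZS12180 was the example of the 7 and showed a small, tight difference, at 31.3 to 35.2 CPM with LCO and 45.7 to 52.8 CPM with ions, around control libraries at 34.4 to 41.7 CPM (log2 fold change over ions -0.53, SE 0.07, adjusted p 0.00019). The count of 32 was 17 without control replicate 6, 21 without control replicate 4 or LCO replicate 6, and 75 without ion replicate 5. The last 491 called targets, 176 higher and 315 lower, were called against control for neither exposure. Their number was 196 without ion replicate 4, 197 without LCO replicate 5, 308 without LCO replicate 1 and 523 without ion replicate 5.

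**Figure D3:**
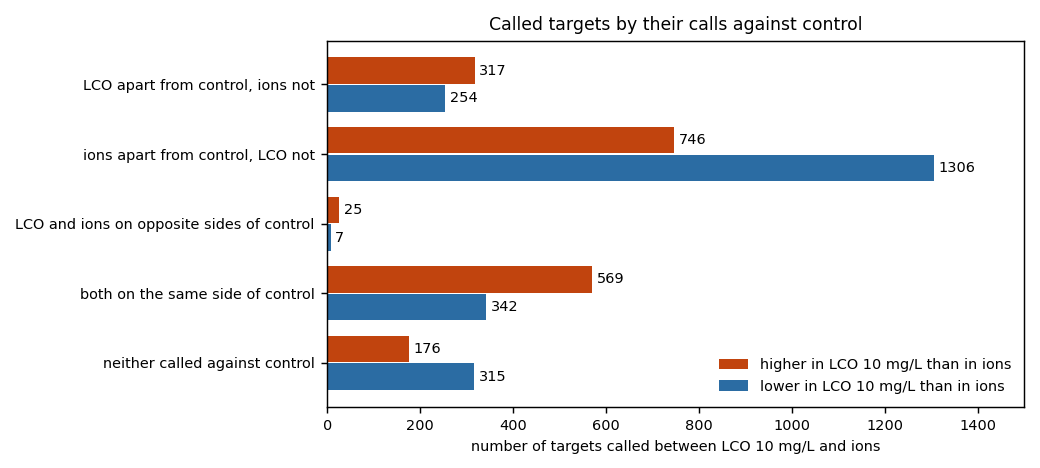
Number of targets called between LCO at 10 mg/L and ions, split by whether LCO, the ions or both were also called against control. Orange bars are targets higher and blue bars targets lower with LCO than with ions, and the largest class is that of 1306 targets raised in ions and not called for LCO.

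Each library was then placed between the group means, with 0 at the mean of the LCO libraries and 1 at the mean of the ion libraries, as the median over called targets. For each of the 10 libraries the calls and the means were made without it. The LCO libraries lay at -0.18 to 0.23 on the higher targets and at -0.24 to 0.28 on the lower ones. Ion replicates 1, 3, 4 and 6 lay at 0.83 to 1.27 and at 0.83 to 1.5. Ion replicate 5 lay at 0.14 on the higher and 0.16 on the lower targets, which is within the range of the LCO libraries. The 5 libraries at 1 mg/L, which entered neither mean, lay at -0.22 to 0.04 and at -0.22 to -0.06. Control libraries were widely spread, from -0.63 to 0.15 and from -0.63 to 0.50.

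The placing changed on targets over 2-fold apart. There the LCO libraries lay at -0.02 to 0.19 on the higher and -0.20 to 0.28 on the lower targets, and ion replicates 1, 3, 4 and 6 at 0.61 to 1.04 and at 0.88 to 1.16. Ion replicate 5 lay at 0.38 on the higher targets, outside the range of the LCO libraries and below the other ion libraries, and at 0.18 on the lower targets, within the LCO range. The libraries at 1 mg/L lay at 0.08 to 0.27 and at -0.06 to 0.18. Control libraries lay at 0.45 to 0.88 on the higher targets, between the means of LCO and ions, and at -0.36 to 0.89 on the lower ones. On the higher targets, control replicates 1 and 4, both at 0.45, were slightly nearer to LCO and the others nearer to the ions.

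**Figure D4:**
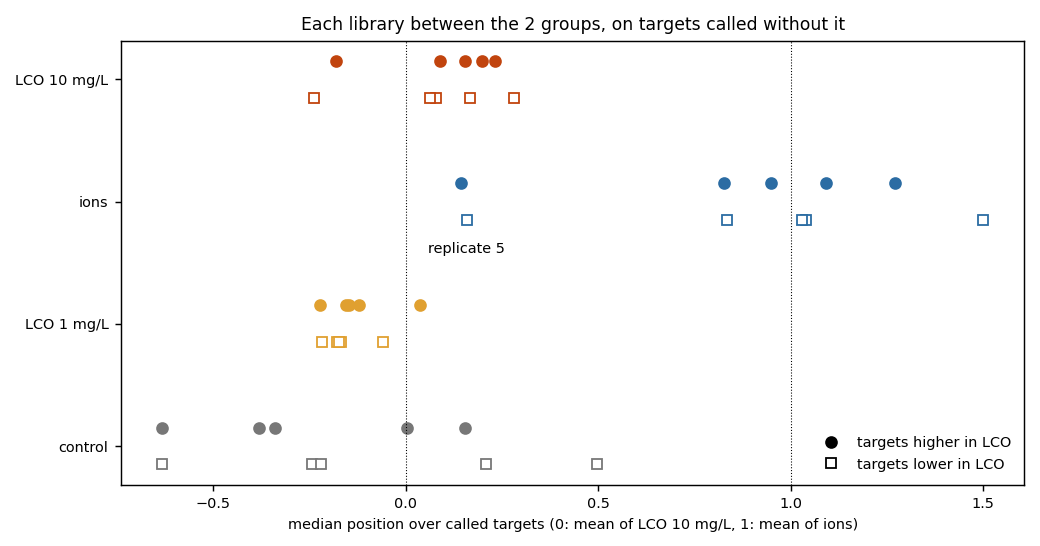
Position of each of the 20 libraries between the LCO 10 mg/L mean (0) and the ion mean (1), as the median over all targets called higher (filled circles) or lower (open squares) with LCO. Ion replicate 5 lies at 0.14 and 0.16, among the LCO libraries, and the libraries at 1 mg/L lie between -0.22 and 0.04.

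The number of calls moved with single libraries. It was 1892 without LCO replicate 5, which lay farthest from the ions, and 1819 without ion replicate 4, which lay farthest from LCO. It was 2646 without ion replicate 3, and between 2969 and 3660 without any of the other 6 libraries apart from ion replicate 5. Calls that held, in the same direction, in all 10 fits with 1 library left out numbered 812 of the 1833 higher and 780 of the 2224 lower targets. Their median log2 fold changes were 0.73 and -0.72. They included the 12 targets named by rule, which were chosen for a small p, and all 32 with LCO and ions on opposite sides of control. The 32 were defined by calls on both sides of control, which favours a call between LCO and ions. Their holding thus says little about other calls.

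**Figure D5:**
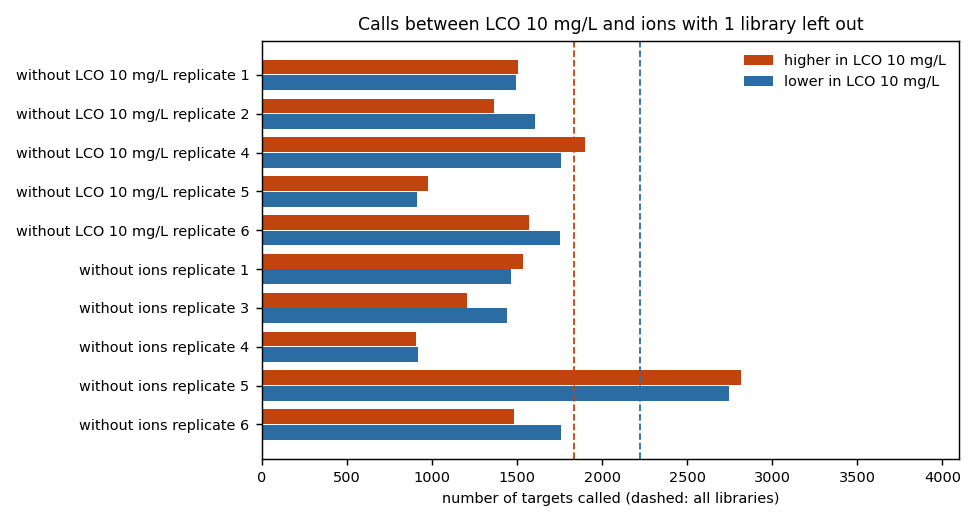
Targets called higher (orange) and lower (blue) in the LCO 10 mg/L group than in the ion group when 1 library is left out, with the counts from all libraries as dashed lines. Without ion replicate 5 both counts are above the dashed lines, and they are lowest without ion replicate 4 and LCO replicate 5.

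The comparison of LCO at 1 mg/L with control contrasts none of the 10 libraries and can be set beside these calls. Its calls are not independent of them, since filter, scaling and estimates of spread come from the same fit of all 20 libraries. Of all tested targets, 9.33% were called at 1 mg/L, 5.64% above and 3.69% below control. Among the 1833 targets higher at 10 mg/L than in ions, 300 (16.4%) were above and 85 (4.64%) below control at 1 mg/L. Among the 2224 lower targets, 20 (0.899%) were above and 83 (3.73%) below. The lower side was thus near the share of all targets below control and under it above control. The higher targets as a whole did not lean upward at 1 mg/L, since their median log2 fold change over control was -0.07 with 43.6% positive, against -0.03 and 45.5% over all tested. For the lower targets it was -0.07 with 37.4% positive. Among the 70 higher targets past 1.5-fold, 43 (61.4%) were above control at 1 mg/L and 0 below. Among the 11 lower ones, 0 were above and 3 (27.3%) below. Over all 16163 targets the log2 fold changes of both comparisons correlated weakly (r = 0.23, rho = 0.07). The 3 libraries that lay nearest to another group were ion replicate 5, control replicate 1 and LCO 1 mg/L replicate 5. The control and 1 mg/L libraries among them belong to the comparison at 1 mg/L itself. Without these 3, 12.7% of the higher targets were above and 9.84% below control at 1 mg/L. The lower targets were then above control in 2.65% and below it in 8.76%, against 6.93% and 5.89% of all tested. The higher targets thus exceeded the share of all targets on both sides of control, and the lower targets exceeded it below control. With all libraries, the called targets had higher median CPM (25.5 for the higher and 39.8 for the lower) than all tested (14.8). The median SD of log2 CPM at 1 mg/L was 0.185 for the higher and 0.171 for the lower targets, against 0.231 over all tested. In control it was 0.23 and 0.305, against 0.298. Smaller differences are detectable in targets of 10 CPM and over than in rarer ones. Whether abundance or the shared estimates of spread account for these shares was not tested.

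For 2 measures each library gave a single value. After thinning to the smallest library total, 13597 to 13753 targets reached 1 CPM in LCO libraries and 13401 to 13762 in ion libraries. The means of 13680 ± 76.2 and 13579 ± 147 did not differ beyond their spread (SD, n = 5 each; two-sided exact permutation p = 0.198). The 100 most abundant targets took 30.1% ± 1.26 of the counts in LCO libraries and 27.6% ± 0.941 in ion libraries (SD, n = 5 each; two-sided exact permutation p = 0.0159, adjusted over the 2 measures 0.0317). The smallest p this design allows is 0.00794. Much of that gap was KZS10820 alone, at 2.27% of the tested counts with LCO and 0.418% with ions. With it left out, the gap fell to 1.25 percentage points (exact permutation p = 0.111), and with the 20 most abundant targets in place of 100 it was 0.77 percentage points (exact permutation p = 0.262). With the 500 most abundant it was 2.28 (exact permutation p = 0.0238). From TPM in place of estimated counts the gap was 4.85 percentage points (exact permutation p = 0.00794).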

How the data were processed

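Estimated counts per target, which are not normalized, and TPM values, scaled by effective length, were deposited by the authors in 1 table per library, per the file headers, with target length and effective length in bases. The columns are named as kallisto names them, but the counting program, annotation and build are not stated. Of the 26646 identifiers, 0 matched the reference gene table. The edgeR package, version 4.0.16 (R 4.3.3), was run on rounded estimated counts. Low targets were dropped with filterByExpr (minimum count 10, minimum total count 15). Libraries were scaled by TMM, and all 20 were fitted with group as the single term. The quasi-likelihood test of LCO at 10 mg/L against ions was two-sided with Benjamini-Hochberg adjustment over 16163 targets, and glmTreat tested differences over 1.5-fold. SEs are |log2 fold change| over √F. CPM values are TMM-scaled.

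Targets with fractional counts, where reads were split between similar targets, made up 24.2% of those tested. Replicates differed by more than counting error, with a chi-square per degree of freedom of at least 21.8 between replicates, none of which were identical. The labels do not say whether pools came from separate vessels, so p-values cover the spread between these pools. On simulated counts for this contrast (16026 targets, 50 changed per fold), 24% of 1.5-fold, 64% of 2-fold, 94% of 4-fold and 96% of 8-fold changes were recovered. The changed targets were drawn from those with a mean count of at least 50, and no library was made to stand apart. Far fewer targets changed than the 25.1% called here, which makes the adjusted p stricter. The rates describe that setting and are not the sensitivity of this comparison. The members, lists and tests were chosen with earlier results of these data known. Targets were named by rule, with at most 2 higher and 2 lower of smallest p and 1 higher and 1 lower per class against control (no fractional count, mean of at least 5 CPM). Lists by product name could not be run. Alternatives used DESeq2 1.42.0 size factors or its Wald test, limma 3.58.1 on log2(TPM + 1), other filters, thinned counts, the 10 libraries alone, a replicate block, and each library left out. Leaving out the 3 libraries nearest to another group, or the target with the largest difference in share, was chosen after seeing the data. Permutation tests used scipy 1.17.1 and figures matplotlib 3.10.9.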

Additional observations from a re-analysis of the deposited data

Results flagged for a closer look

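Among 36 groups of 5 values, a library lay far from the rest in 3, by a gap of over 0.71 of the range, which chance does in about 1 of 20 groups. The ratio was 0.888 for KZS16074, where ion replicate 5 was low among the ions. It was 0.783 for KZS05735, where LCO replicate 5 at 10 mg/L was high among its group. In the share of counts taken by the 100 most abundant targets, LCO replicate 5 was low, with 0.784. The difference between the effects of LCO at 10 mg/L and of the ions over control is the contrast of LCO with ions, since control cancels. Its 4057 targets are the calls given above and no further result.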

How the results depend on the processing

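The 12 targets named by rule kept their direction and stayed past the threshold in all 371 values computed for them under the alternatives. They were chosen for a small p in this same contrast, so this says little about the other calls. Of all calls, 44.3% of the higher and 35.1% of the lower held in all 10 fits with 1 library left out. The number of called targets ran from 2465 to 4948 over 10 alternatives that kept all libraries of both groups, and from 1819 to 5563 when each of the 20 libraries was left out in turn. The share of higher targets among the calls was 41.0% to 57.7% over the 10 alternatives, and more were lower than higher in 20 of 31 fits. Without a filter on low counts 57.7% were higher (1837 and 1346). With the replicate block, 2465 targets were called (31 past 1.5-fold), and the cause was not tested. The numbers were not shown to pair the libraries, since deviations from the group means correlated at -0.246, 0.492, 0.347 and -0.0682 for LCO and ion replicates 1, 4, 5 and 6. Past 1.5-fold there were 47 targets with 3 groups only, 44 of them among the 81. With only the 10 libraries compared there were 84, 60 higher and 24 lower, 50 of them among the 81. Without the 3 libraries nearest to another group there were 706, 355 higher and 351 lower, which included all 81. With 1 library left out there were 45 to 401.

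With 1 library left out, targets apart from control with LCO and not with ions numbered 235 to 340 (higher) and 119 to 336 (lower). Those apart with ions and not with LCO numbered 324 to 1154 (higher with LCO) and 470 to 1633 (lower). Those on opposite sides numbered 17 to 75, on the same side 408 to 1575, and with neither called 196 to 712. Without the 3 libraries nearest to another group, 415 were lower with LCO apart, 1215 were higher with ions apart, 1430 lay on the same side, and 109 lay on opposite sides. The gap in targets detected per library was 57.1 to 147 with 1 library left out. The gap in the share of the 100 most abundant targets was 2.35 to 3.11 percentage points. It was 4.85 from TPM, 2.28 for the top 500, 0.77 for the top 20 and 1.25 without KZS10820, where the exact permutation p was over the threshold. Thinning every library to the smallest total left 3972 calls, 3759 of them made in the same direction with all counts.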

Other observations

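KZS00011 and KZS17523 also followed KZS10820 over the 20 libraries, with a Pearson's r of log2 CPM of 0.927 and 0.901, at mean levels of 26.9 and 76.5 CPM. Both were picked after their values were seen. Within groups their deviations followed it less closely (0.677 and 0.493). Called targets were longer than all tested targets at the median, with 2076 bases for the higher and 2294 for the lower targets against 1866, and they were also more abundant (25.5 and 39.8 CPM against 14.8). No tested target was without counts in all 5 ion libraries, and 4 were without counts in all 5 LCO libraries, none of them called.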
